A study of Homo sapiens with 2 samples.

Results

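MIRLET7BHG, PPARA, TTC38, TRMU and CELSR1 are 5 genes that lie within 600 kb of each other in band 22q13 of chromosome 22, and their spans held 23 of the 3304 positions in a list of RIP peaks from hepatocellular carcinoma cells. The peaks were chosen by position: a listed peak entered if it shared at least 1 base with the span of 1 of these genes on hg19. The genes themselves were picked because the list held peaks in them, so every count of peaks in them is a description and carries no test. Chromosome 22 held 567 of the listed peaks, or 17.2%, and the 5 genes held 23 of those 567.

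RNA immunoprecipitation followed by sequencing (RIP-seq) asked which RNAs MTR4 binds. PLC/PRF5, an established line of hepatocellular carcinoma, overexpressed MTR4 with an HA tag from a pcDNA3 plasmid, and nuclear lysates of these cells were incubated with an anti-HA antibody (MTR4-HA RIP) or with IgG (IgG RIP). There was 1 library for each antibody, both from cells that carried the tagged protein, and the IgG library is named an input in its title. The list was read as the peaks of the MTR4-HA RIP, from the name it carries and the study's methods, since no label ties it to a library. No value below has a replicate, the number of reads behind a peak is unknown, and no peaks of the IgG library were analysed here.

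MTR4 is an RNA helicase that unwinds RNA and feeds it into the exosome, the main 3′ to 5′ RNA-degrading machine of the nucleus, and it does so as part of the TRAMP, NEXT and PAXT complexes. MIRLET7BHG is a long noncoding RNA that serves as the host transcript of microRNAs of the let-7 family, small RNAs that repress growth-promoting mRNAs and are cut from hairpins in longer primary transcripts. PPARA encodes a nuclear receptor that switches on fatty acid oxidation in hepatocytes. TRMU encodes a mitochondrial enzyme that adds sulphur to tRNAs, CELSR1 encodes a cadherin of the cell surface that orients cells in an epithelial sheet, and TTC38 encodes a protein with tetratricopeptide repeats.

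The microRNAs are shown first because the place of the MIRLET7BHG peaks is measured against them. Their mature sequences, from RefSeq (a table on GRCh38.p14), are written 5′ to 3′ with the seed, bases 2 to 8, in capitals, and the hairpins they come from were found letter for letter in hg19.
hsa-let-7a-5p: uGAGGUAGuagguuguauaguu
hsa-let-7b-5p: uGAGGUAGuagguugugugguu
hsa-let-7a-3p: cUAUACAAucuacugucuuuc
hsa-let-7b-3p: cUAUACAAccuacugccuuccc
hsa-miR-4763-5p: cGCCUGCCcagcccuccugcu
hsa-miR-4763-3p: aGGCAGGGgcuggugcugggcggg
hsa-miR-3619-5p: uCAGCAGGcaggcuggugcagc
hsa-miR-3619-3p: gGGACCAUccugccugcugugg
The 5p strands of let-7a and let-7b share the seed GAGGUAG and differ by A17G and A19G, counted from 1 at the 5′ end with the let-7a base first. That seed occurred in 11 of 2370 mature human microRNAs of the table, among them let-7c, let-7d, let-7e, let-7f, let-7g, let-7i and miR-98. The 3p strands of let-7a and let-7b shared another seed, UAUACAA. The arms of miR-4763 and miR-3619 carried 4 further seeds, none shared among these 8 sequences.

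MIRLET7BHG (ENSG00000197182, chr22:46449749-46509808, + strand, 60.1 kb) held 5 listed peaks, 8.33 per 100 kb. From the 5′ end they were peak 3663 at chr22:46452702-46453101, peak 3664 at chr22:46466002-46466401, peak 3665 at chr22:46470602-46471001, peak 3667 at chr22:46500402-46500801 and peak 3668 at chr22:46507202-46507601, where the number is the one the list gives. Every peak in the list is 400 bases wide, and the starts of the peaks in the 5 genes lie on steps of 100 bases. Overlaps and distances smaller than that step are therefore not resolved, though they are given below to the base. Their midpoints fell 3.15, 16.5, 21.1, 50.9 and 57.7 kb from the start of the gene, at 5.25%, 27.4%, 35.1%, 84.7% and 96.0% of its length. There were thus 3 peaks toward the 5′ end, 2 near the 3′ end and a stretch of 29.8 kb between the starts of peaks 3665 and 3667 with none.

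Peaks 3663, 3664 and 3665 lay in intron 1 of the canonical transcript, the one GENCODE marks as representative, and that intron is 44 kb long. Peak 3667 lay in intron 4, 688 bases from the nearest canonical exon edge. None of these 4 shared a base with an exon of any of the 9 annotated MIRLET7BHG transcripts. Peak 3668 lay with all 400 bases in an exon, but of a transcript other than the canonical one, which ends 5498 bases before the midpoint of the peak. The gene's exons, over all transcripts, make up 10.8% of its span.

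The exon under peak 3668 is the last of the transcript ENST00000360737, 4165 bases long at chr22:46505644-46509808, and peak 3668 began 1558 bases into it. The last exon of another transcript, ENST00000435439 at chr22:46505551-46507355, also shared 154 bases with the peak but ended before its midpoint. The longer exon, of ENST00000360737, contains 3 of the 4 hosted microRNA genes. Going downstream from the 3′ edge of peak 3668, MIRLET7A3 (chr22:46508629-46508702) began after 1027 bases, MIR4763 (chr22:46509446-46509537) after 1844 and MIRLET7B (chr22:46509566-46509648) after 1964. The let-7a-3 and let-7b genes are themselves 863 bases apart, so the gap from peak 3668 to the first of them was of the same order as the gap between them. ENST00000360737 was the only 1 of the 9 transcripts that contained MIRLET7B, and the only one that spanned the midpoint of peak 3668.

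Peak 3667 lay in the span of the same let-7b transcript, 7827 bases upstream of MIRLET7A3, 8644 bases upstream of MIR4763 and 8764 bases upstream of MIRLET7B, and 8 of the 9 transcripts spanned it. The 3 peaks near the 5′ end were 37.6 to 55.5 kb upstream of MIRLET7A3 and were spanned by 1 or 2 of the 9 transcripts. They lay upstream of the start of ENST00000360737 at position 46481883. As annotated, then, only 2 of the 5 peaks belonged to a transcript that holds let-7.

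The fourth hosted microRNA gene, MIR3619 (chr22:46486924-46487006), is intronic and lay between the groups of peaks. Peak 3665 was 15922 bases upstream of it and peak 3667 was 13395 bases downstream of it. No peak overlapped a hosted microRNA gene, and no peak lay between MIRLET7A3 and the 3′ end of the host. The next listed peak after MIRLET7B was peak 3671 in PPARA, 106453 bases on.

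**Figure D1:**
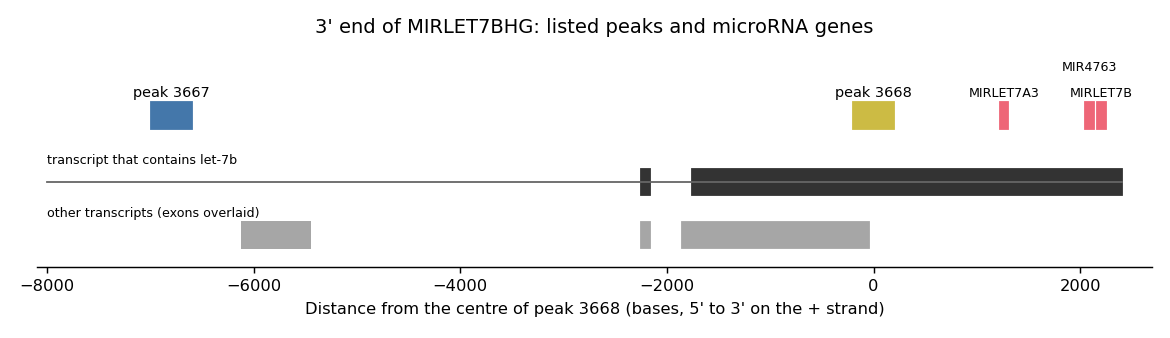
The 3′ end of MIRLET7BHG, with distance from the centre of peak 3668 in bases on the x axis. The blue and yellow boxes are peaks 3667 (intron) and 3668 (exon), red boxes are microRNA genes, black boxes are exons of the transcript that contains let-7b and grey boxes are exons of the other transcripts: peak 3668 sits inside the last black exon, 1027 bases before MIRLET7A3.

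These distances were set beside those of all 59 microRNA genes on chromosome 22. Their median distance to the nearest listed peak was 32563 bases, 1 of them (MIR1281) was overlapped by a peak, 3 had a peak within 1000 bases and 8 within 2500 bases. In order of nearness MIRLET7A3 was number 4, MIR4763 number 7, MIRLET7B number 8 and MIR3619 number 19. Hence MIRLET7A3, MIR4763 and MIRLET7B were 3 of those 8, and all 3 owed their place to peak 3668 alone.

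The sequence under 2 of the MIRLET7BHG peaks is given because they had the lowest and the highest GC content of the 23: peak 3663 holds a long run of A, in capitals below, and peak 3667 holds the CCA-type motif, in capitals. Each line gives 300 bases of the peak on hg19, 5′ to 3′ on the strand of the gene.
peak 3663, chr22:46452718-46453017, + strand: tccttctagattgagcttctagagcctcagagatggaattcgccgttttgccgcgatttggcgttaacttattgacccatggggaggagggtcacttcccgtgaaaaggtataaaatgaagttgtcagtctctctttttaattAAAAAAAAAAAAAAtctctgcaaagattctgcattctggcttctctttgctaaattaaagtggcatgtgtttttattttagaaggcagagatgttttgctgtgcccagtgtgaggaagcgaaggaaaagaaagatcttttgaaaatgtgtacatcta
peak 3667, chr22:46500452-46500751, + strand: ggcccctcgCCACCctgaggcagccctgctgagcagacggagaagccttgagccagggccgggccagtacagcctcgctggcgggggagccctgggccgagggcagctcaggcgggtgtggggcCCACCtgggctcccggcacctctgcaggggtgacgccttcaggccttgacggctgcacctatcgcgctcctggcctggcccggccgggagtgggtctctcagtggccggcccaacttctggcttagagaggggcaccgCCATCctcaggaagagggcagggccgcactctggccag
The run of A was 14 bases in peak 3663, at bases 160 to 173 of the peak, and 28 bases in peak 3668, at bases 318 to 345. Of the 567 peaks on chromosome 22, 15 (2.65%) had a run of at least 14 A on the strand of their gene and 2 (0.353%) a run of at least 28, peak 3668 and 1 other.

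The study described a poly(A)-like motif of 12 bases and a CCA-type motif under its peaks, and both were searched in the orientation of the gene. The poly(A)-like motif occurred in 2 of the 23 peaks, 8.70% (95% CI 2.42 to 26.8), against 16 of the 544 other peaks on chromosome 22, 2.94% (95% CI 1.82 to 4.72). These intervals overlap, and both matches were in MIRLET7BHG. In peak 3663 the match began at base 159 and ran into the run of A. In peak 3668 it began at base 154, apart from the run of 28. Of the overlapping words of 20 bases in peak 3668, 65.1% occurred at 10 or more places on chromosome 22. A share of at least 50% was found in 1 of the 23 peaks and in 9 of the 567 on the chromosome. Under 1% of such words was found in 21 of the 23 and in 459 of the 567. Whether the repeated words touched the mapping of reads in peak 3668 was not tested.

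Both 5′ peaks with another gene at their position need a limit. Peak 3663 also overlapped PRR34-AS1 on the same strand and ENSG00000231010 on the opposite strand, and peak 3664 also overlapped ENSG00000289044 on the same strand, a lncRNA of 0.737 kb whose exon lay at the midpoint of the peak. The list gives + for every peak and was not used for strand, so reads of these genes and of MIRLET7BHG cannot be told apart. Without these 2 peaks MIRLET7BHG held 3.

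PPARA (ENSG00000186951, chr22:46546424-46639652, + strand, 93.2 kb) held 3 peaks, 3.22 per 100 kb, the lowest density of the 5 genes. Peak 3671 lay at chr22:46616102-46616501, peak 3672 at chr22:46628002-46628401 and peak 3673 at chr22:46634102-46634501. Their midpoints fell at 75.0%, 87.7% and 94.3% of the gene, so all 3 lay toward its 3′ end, and none lay in the 69.9 kb before the midpoint of peak 3671.

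Each PPARA peak had a different place in the transcript. Peak 3671 lay in intron 7 of the canonical transcript, 11.8 kb long, with its midpoint 390 bases from an exon edge. There it fell in an exon of ENST00000493286, a transcript annotated as retaining intron sequence, so it was classed as a noncoding exon. Peak 3672 crossed the 5′ splice site at the end of exon 8: 135 of its bases lay in the exon, and its midpoint lay 65 bases into intron 8, which is 2.89 kb long. Peak 3673 lay in the 3′ UTR, in exon 9 of 8623 bases, and began 2827 bases past the last coding base.

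The PPARA peaks were poor in GC, at 44.5%, 37.5% and 41.0%, all below the 46.4% of the gene span. Peak 3671 held a run of 8 A at bases 65 to 72, and 38.6% of its words of 20 bases recurred at 10 or more places on chromosome 22. The CCA-type motif occurred 3 times in peak 3671, 1 time in peak 3672 and not in peak 3673.

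TTC38 (ENSG00000075234, chr22:46663858-46689905, + strand, 26.0 kb) held 2 peaks, 7.68 per 100 kb, both near its 3′ end. Peak 3677 (chr22:46684002-46684401) had its midpoint in intron 10, 119 bases before exon 11, and 82 of its bases in that exon. Peak 3678 (chr22:46689002-46689401) lay in the 3′ UTR, in exon 14, and began 223 bases past the last coding base. It ended 504 bases before the end of the gene, at 97.3% of its length by the midpoint.

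TRMU (ENSG00000100416, chr22:46726772-46753237, + strand, 26.5 kb) held 3 peaks, 11.3 per 100 kb, the highest density of the 5 genes. None of the 3 shared a base with an exon of the canonical transcript, which has 11 exons and starts at position 46731611. Peak 3685 (chr22:46729002-46729401) lay upstream of that start, in an exon of the transcript ENST00000476901, for which no coding sequence is defined. Peak 3686 (chr22:46734602-46735001) lay in intron 2, 960 bases from an exon, and peak 3688 (chr22:46750002-46750401) in intron 8, 437 bases from an exon.

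The class of the TRMU peaks rests on which transcripts are counted. Peak 3688 was exonic because 2 transcripts that retain intron sequence, ENST00000485559 and ENST00000645026, have an exon there. With 24 annotated transcripts, the exons of TRMU make up 34.8% of its span, the largest share of the 5 genes, where the other shares ran from 9.08% to 14.2%. An exonic class therefore says less about a peak in TRMU than about one in the other genes.

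CELSR1 (ENSG00000075275, chr22:46756731-46933517, 177 kb) is the only 1 of the 5 genes on the - strand and held 10 peaks, 5.66 per 100 kb. From its 5′ end these were peaks 3704, 3703, 3702, 3701, 3700, 3699, 3696, 3692, 3691 and 3690. Their midpoints fell at 0.801%, 41.6%, 47.0%, 66.9%, 70.4%, 72.1%, 82.7%, 95.1%, 96.5% and 98.5% of the gene. A single peak therefore lay near the start, followed by 72.1 kb with none, and 7 of the 10 lay beyond 50% of the length.

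Of the CELSR1 peaks 3 were in coding exons. Peak 3704 (chr22:46931902-46932301) lay in exon 1, of 3994 bases, with its midpoint 1.42 kb from the start of the gene. Peak 3703 (chr22:46859802-46860201) lay with all 400 bases in exon 2, of 639 bases. Peak 3691 (chr22:46762702-46763101) covered the whole of exon 29, which is 126 bases, and the flanking intron sequence on both sides. Peaks 3703 and 3704 are shown because they are wholly coding and hold the CCA-type motif 5 and 7 times over the whole peak. The 300 bases shown hold 4 and 2 of these matches, in capitals, and matches that overlap run together. The bases are those of hg19, written 5′ to 3′ on the strand of the gene.
peak 3704, chr22:46931952-46932251, - strand: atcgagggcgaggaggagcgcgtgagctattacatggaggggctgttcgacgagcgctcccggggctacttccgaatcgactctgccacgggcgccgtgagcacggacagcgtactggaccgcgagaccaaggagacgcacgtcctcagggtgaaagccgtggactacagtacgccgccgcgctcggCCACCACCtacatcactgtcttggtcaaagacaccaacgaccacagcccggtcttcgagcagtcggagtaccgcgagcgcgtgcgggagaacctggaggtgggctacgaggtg
peak 3703, chr22:46859852-46860151, - strand: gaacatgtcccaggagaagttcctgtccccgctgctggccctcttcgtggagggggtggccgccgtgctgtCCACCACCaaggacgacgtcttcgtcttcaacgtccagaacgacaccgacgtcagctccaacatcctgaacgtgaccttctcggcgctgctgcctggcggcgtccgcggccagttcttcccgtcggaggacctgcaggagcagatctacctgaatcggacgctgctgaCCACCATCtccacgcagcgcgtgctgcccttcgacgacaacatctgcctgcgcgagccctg
The other coding peak, 3691, held the motif 4 times.

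Another 6 CELSR1 peaks had their midpoints in introns. Peaks 3692 (chr22:46765202-46765601), 3696 (chr22:46787202-46787601) and 3699 (chr22:46805902-46806301) lay in introns 26, 15 and 7, which are short, at 433, 345 and 517 bases, and each also reached into an exon, by 13, 72 and 7 bases. Peaks 3700 (chr22:46808802-46809201) and 3701 (chr22:46815002-46815401) both lay in intron 5, of 21.6 kb, at 1345 and 7545 bases from an exon, and peak 3702 (chr22:46850302-46850701) lay in intron 2, of 24.3 kb, at 9103 bases. Hence 3 of the intronic peaks sat beside exons and 3 deep in long introns. The overlaps of 13, 72 and 7 bases are smaller than the step on which peak starts lie. Peak 3690 (chr22:46759102-46759501) was classed as 3′ UTR through ENST00000473624, while in the canonical transcript its midpoint lay in intron 34, of 0.748 kb, and 43 of its bases in exon 35.

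**Figure D2:**
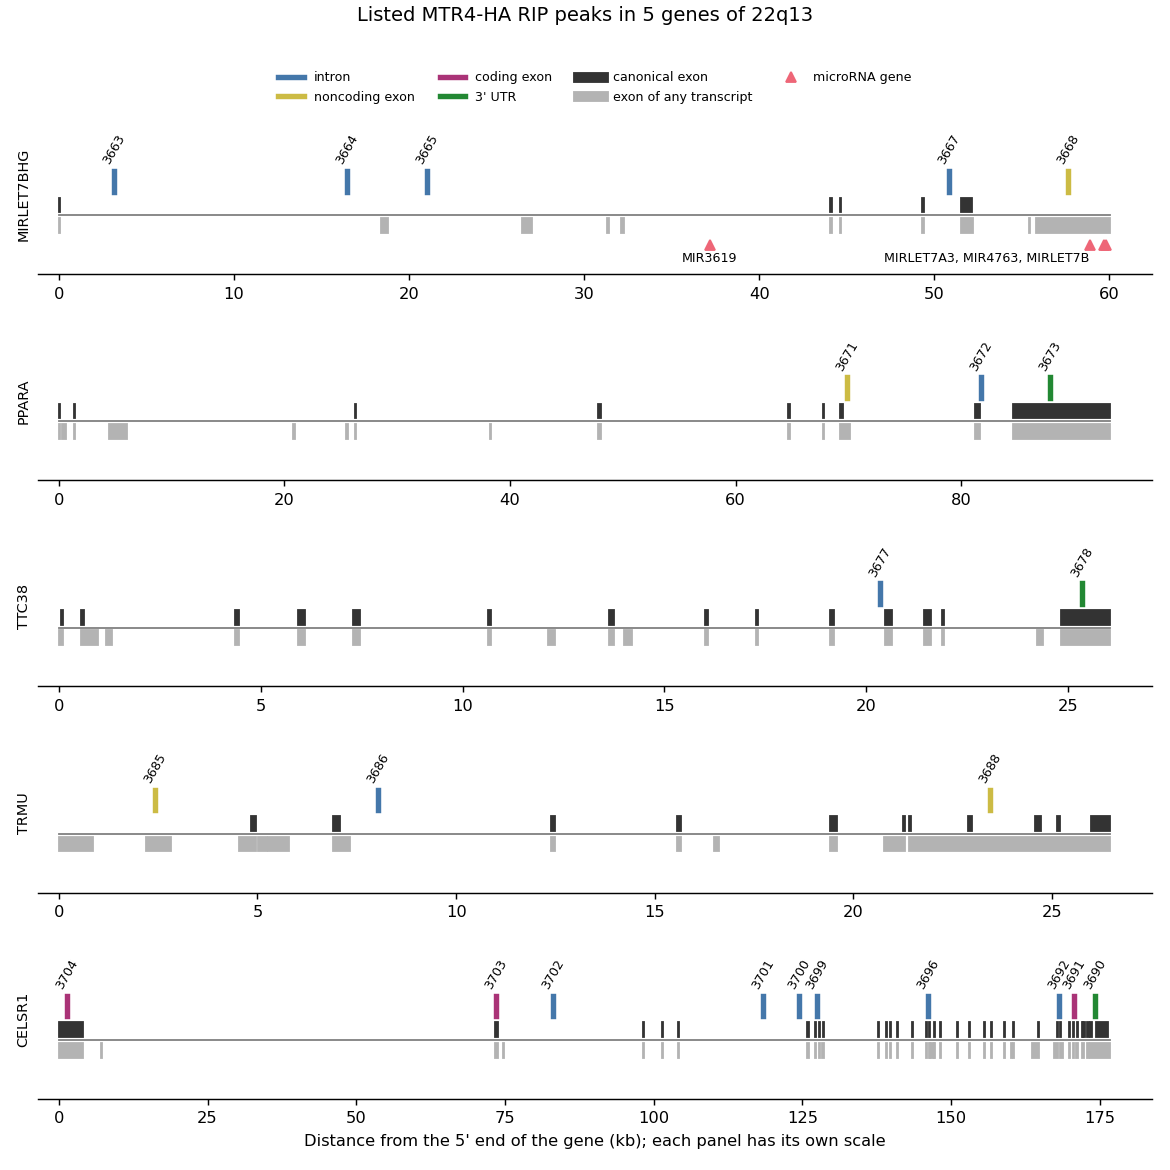
Map of the 23 peaks in the 5 genes, with distance from the 5′ end of each gene in kb on the x axis and a scale of its own for each gene. Coloured bars are peaks by class (blue intron, yellow noncoding exon, purple coding exon, green 3′ UTR), black boxes are canonical exons, grey boxes exons of any transcript and red triangles microRNA genes; the 3 PPARA peaks and both TTC38 peaks lie toward the 3′ end, while those of MIRLET7BHG lie toward both ends.

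Over the 5 genes, 13 peaks were intronic by their midpoint, 4 lay in noncoding exons, 3 in coding exons and 3 in 3′ UTRs, and none in a 5′ UTR. Exons thus held 10 of 23, 43.5% (95% CI 25.6 to 63.2), where the exons of these genes make up 12.7% of their span. The count depended on how an exon was defined and, where any shared base was enough, on peak edges that are placed only in steps. It rose to 15 of 23, 65.2% (95% CI 44.9 to 81.2), when any shared base was enough, and fell to 5 of 23, 21.7% (95% CI 9.66 to 41.9), in canonical transcripts. Among the other peaks in genes of chromosome 22, 50.8% were exonic by midpoint over the transcripts of all genes (267 of 526, 95% CI 46.5 to 55.0), and on that count the 23 gave 47.8% (11 of 23, 95% CI 29.2 to 67.0). The intervals overlap, and no difference from the rest of the chromosome was detectable with 23 peaks. The intervals are Wilson intervals and cover counting error within this 1 list only.

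MTR4 was studied here for its part in splicing, so the splice sites under the peaks were listed. In the 4 coding genes, 7 of 18 peaks crossed a splice site of the canonical transcript, 38.9% (95% CI 20.3 to 61.4), against 150 of the 490 other peaks in coding genes of chromosome 22, 30.6% (95% CI 26.7 to 34.8). Peak edges are placed only in steps, so a crossing by fewer bases than the step is not resolved. That holds for most of the 7: peaks 3699, 3692, 3690, 3696 and 3677 reached into the exon by 7, 13, 43, 72 and 82 bases. The 7 peaks crossed 8 sites, 5 of them 5′ and 3 of them 3′ splice sites. They are given on hg19, 5′ to 3′ on the strand of the gene, as 12 bases on each side of the boundary with the exon in capitals.
peak 3672, PPARA exon 8 5′ splice site, chr22:46628125-46628148, + strand: TTTGCTGTGGAGgtgagtggttga
peak 3677, TTC38 exon 11 3′ splice site, chr22:46684308-46684331, + strand: ccatgtcctcagGAGTGTCTGTGG
peak 3690, CELSR1 exon 35 3′ splice site, chr22:46759133-46759156, - strand: tcccacgcgcagAGGCAGTAATGA
peak 3691, CELSR1 exon 29 3′ splice site, chr22:46763004-46763027, - strand: tcctccctccagGGCCCCTTCGTC
peak 3691, CELSR1 exon 29 5′ splice site, chr22:46762878-46762901, - strand: ACCCTGCTGACGgtaggaggcgcc
peak 3692, CELSR1 exon 26 5′ splice site, chr22:46765577-46765600, - strand: GCTGTTATAATCgtgagtgtgggg
peak 3696, CELSR1 exon 15 5′ splice site, chr22:46787518-46787541, - strand: TCGGCTGTGAAGgtccgcgttgcc
peak 3699, CELSR1 exon 7 5′ splice site, chr22:46806283-46806306, - strand: GCACCCGGGAAGgtacgggtggcc
CELSR1 accounted for 6 of the 8 sites, PPARA and TTC38 for 1 each and TRMU for none. All 5 of the 5′ sites had gt and all 3 of the 3′ sites had ag at the intron end. The sites were taken from annotated exon edges, so this describes the annotation and not the peaks.

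Peaks whose midpoint lay in a transcript that retains an intron and in no exon of a protein-coding transcript were 2 of the 18, peak 3671 in PPARA and peak 3688 in TRMU. That is 11.1% (95% CI 3.10 to 32.8), against 7.14% (95% CI 5.18 to 9.77) of the other 490. Peaks beyond 50% of the length of their gene were 13 of 18, 72.2% (95% CI 49.1 to 87.5), against 58.6% (95% CI 54.2 to 62.8). Both pairs of intervals overlap. By gene these were 3 of 3 in PPARA, 2 of 2 in TTC38, 1 of 3 in TRMU and 7 of 10 in CELSR1, and in MIRLET7BHG 2 of 5.

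GC content varied widely among the 23 peaks, from 37% in peak 3663 to 70.0% in peak 3667, both in MIRLET7BHG. The median was 58.8%, and over all 567 peaks on chromosome 22 it was 54.2%, with a range of 28.5% to 84.8%. In MIRLET7BHG the 5 values from the 5′ end were 37%, 68.0%, 61.0%, 70.0% and 55.8%, against 56.8% for the gene span. The CELSR1 peaks had a median of 61.9% against 54.0% for the gene, with peak 3701 at the gene's value to 1 decimal and only peak 3700, at 44%, further below. The TTC38 peaks, at 59.2% and 57.5%, were above their gene's 54.2%. In TRMU, peaks 3685 and 3686, at 46.2% and 45.0%, were below and peak 3688, at 58.5%, above the gene's 52.4%. PPARA was thus the only gene with all its peaks below the gene's own GC content.

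**Figure D3:**
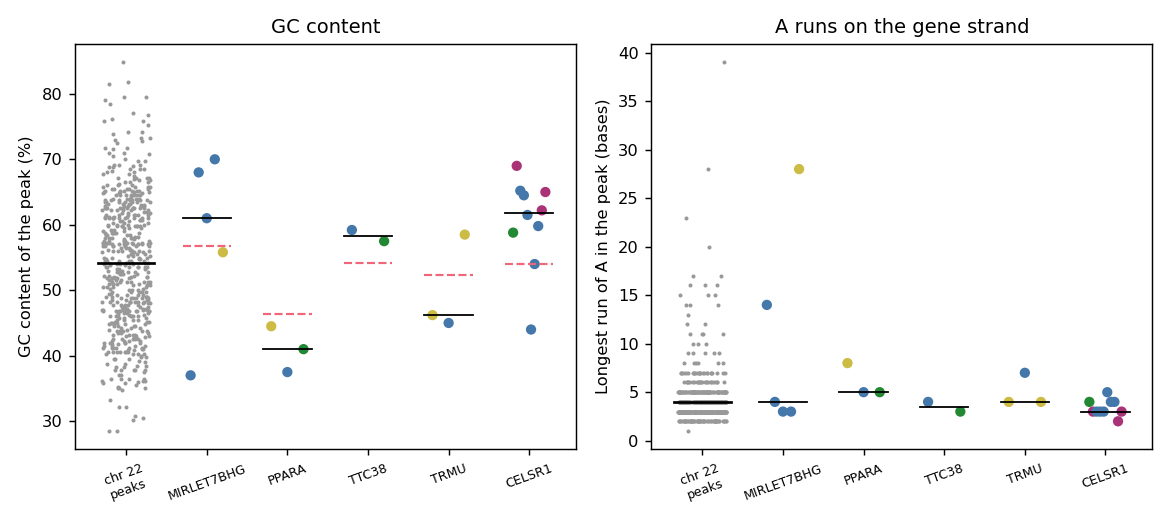
GC content in percent (left) and longest run of A on the strand of the gene in bases (right), with a point for each peak. Grey points are the 567 peaks of chromosome 22 and coloured points the 23 peaks (blue intron, yellow noncoding exon, purple coding exon, green 3′ UTR), black lines are medians and red dashed lines the GC content of the gene span; the run of 28 A in MIRLET7BHG lies apart from the other coloured points.

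The CCA-type motif, searched as CCANC with C, G or T at N in the orientation of the gene, occurred in 20 of the 23 peaks, 87.0% (95% CI 67.9 to 95.5). The other 544 peaks of chromosome 22 held it in 84.9% (462 of 544, 95% CI 81.7 to 87.7). It was absent from peaks 3663, 3673 and 3686 and most frequent in peak 3704, with 7 matches, and peak 3692, with 6. The notation of the motif can also be read as CCAGNC with C, G or T at N, some matches of which overlap the first word, and it occurred in 13 of 23 (56.5%) and in 57.4% of the other peaks. Under both readings the 23 peaks held the motif in about the share seen in the other peaks of the chromosome. Sequence outside peaks was not searched, so how often such short words occur without a peak is unknown, and the matches are no evidence of binding.

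To place these counts among the genes of chromosome 22, all its annotated genes were counted the same way. Of 450 protein-coding genes, 242 (53.8%) held at least 1 peak, and of 431 lncRNA genes, 60 (13.9%) did, so that a peak in 1 of the 4 coding genes was ordinary on this chromosome. On the 6 chromosomes with most peaks the share of coding genes with a peak was 32.1%, and over the genome it was 6.97%. Of the 1404 coding genes with a peak, 1400 lie on those 6 chromosomes, so the list is almost confined to them and the shares over the genome do not compare binding between chromosomes. Among chromosome 22 genes with a peak, the median density was 5.51 peaks per 100 kb in coding genes and 9.85 in lncRNA genes. Longer genes hold more peaks, so each of the 5 genes was set beside genes of its type and of a length within 1.5-fold.

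CELSR1, with 10 peaks, had more than any of the 29 coding genes of like length, whose median was 2 and whose range was 0 to 7. By number of peaks it was number 4 of the 450 coding genes, tied with 1 other. MIRLET7BHG, with 5 peaks, was number 2 of the 431 lncRNA genes, tied with 1 other, and of 27 lncRNA genes of like length 1 had as many and the median was 0. Its count includes peaks 3663 and 3664, which also overlap other genes, and without them it was 3. The other 3 genes were nearer to the middle: 19 of 50 genes like PPARA had at least as many peaks, 34 of 118 like TTC38 and 14 of 118 like TRMU. These ranks follow from the way the genes were picked.

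**Figure D4:**
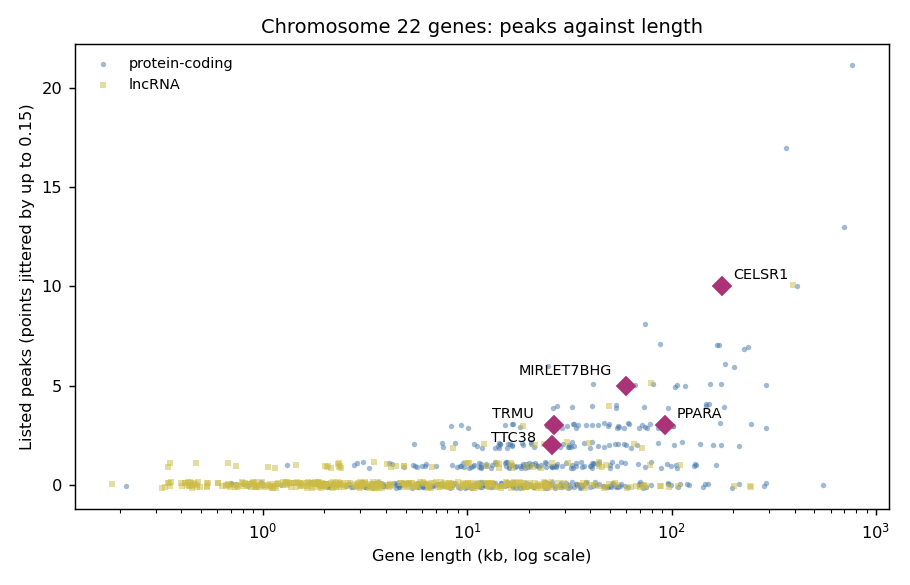
Number of listed peaks (y axis) against gene length in kb on a log scale (x axis) for the protein-coding (blue circles) and lncRNA (yellow squares) genes of chromosome 22, with a small jitter on y. Purple diamonds mark the 5 genes: CELSR1, with 10 peaks, and MIRLET7BHG, with 5 when those shared with other genes are counted, lie at the upper edge for their length, and PPARA, TTC38 and TRMU lie among the other genes.

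The genes of chromosome 22 whose density was nearest to the 8.33 peaks per 100 kb of MIRLET7BHG, of the 84 genes with at least 3 peaks considered, were SUN2 with 5 peaks (8.22 per 100 kb), ENSG00000279159 with 4 (8.12), TBC1D10A with 3 (8.58), EP300 with 7 (8 per 100 kb) and PPIL2 with 3 (8.82). SUN2 encodes a protein of the inner nuclear membrane and EP300 a histone acetyltransferase that acts as a coactivator of PPARA among others. ENSG00000279159 was the only lncRNA among these 5. The likeness is in density alone, over 1 library. The density of MIRLET7BHG counts peaks 3663 and 3664, which also overlap other genes.

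Together the 5 genes had 6.01 peaks per 100 kb of gene, and chromosome 22 had 1.62 per 100 kb of sequenced bases. These rates are not alike, as the first covers genes picked for their peaks and the second all sequence, also outside genes. The median of 5.51 per 100 kb in coding genes of the chromosome with a peak is nearer but still unlike. It is a median over single genes, while 6.01 is all peaks over the summed length of the 5 genes. MIRLET7BHG is also a lncRNA gene, and the median of lncRNA genes with a peak was 9.85. In the stretch of 600 kb that holds the 5 genes the list had 26 peaks, and of the 56 stretches of 600 kb along the chromosome, with a median of 10 peaks and a range of 0 to 27, 1 held more. That stretch was set around genes picked for their peaks, so its rank is a description only. Of 29 annotated genes there, 11 held a peak and 18 did not. The 3 peaks outside the 5 genes were peak 3674 in CDPF1, which began 49 bases past the 3′ end of PPARA, peak 3705 in LINC02925, 7884 bases from the 5′ end of CELSR1, and peak 3706 in GRAMD4. Peak 3674 was the nearest to the rule that did not meet it, and peak 3678, 504 bases inside the end of TTC38, was the nearest to a gene's edge among those that did. The 49 bases by which peak 3674 missed PPARA are fewer than the step on which peak starts lie.

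The list is numbered along the chromosome, and some numbers have no listed position. From 3663 to 3706 there were 44 numbers and 18 had no position, so 59.1% were listed. MIRLET7BHG lacked 1 of the 6 numbers between its first and last peak, TRMU 1 of 4 and CELSR1 5 of 15, while PPARA and TTC38 lacked none. Over all of chromosome 22 the numbers ran from 2849 to 3854, and 567 of them had a position. Elsewhere on the chromosome some runs of missing numbers were longer than any here, as between peaks 3304 and 3312. From 3663 to 3706 the longest run was 6, between peak 3678 in TTC38 and peak 3685 in TRMU. The starts of these 2 peaks were 40.0 kb apart, and the stretch holds GTSE1 (chr22:46692767-46726707), a cell cycle gene of 33.9 kb with no listed peak. Why some numbers have no position was not tested, and an absence of listed peaks, also in the middle of MIRLET7BHG, cannot be read as an absence of bound RNA.

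**Figure D5:**
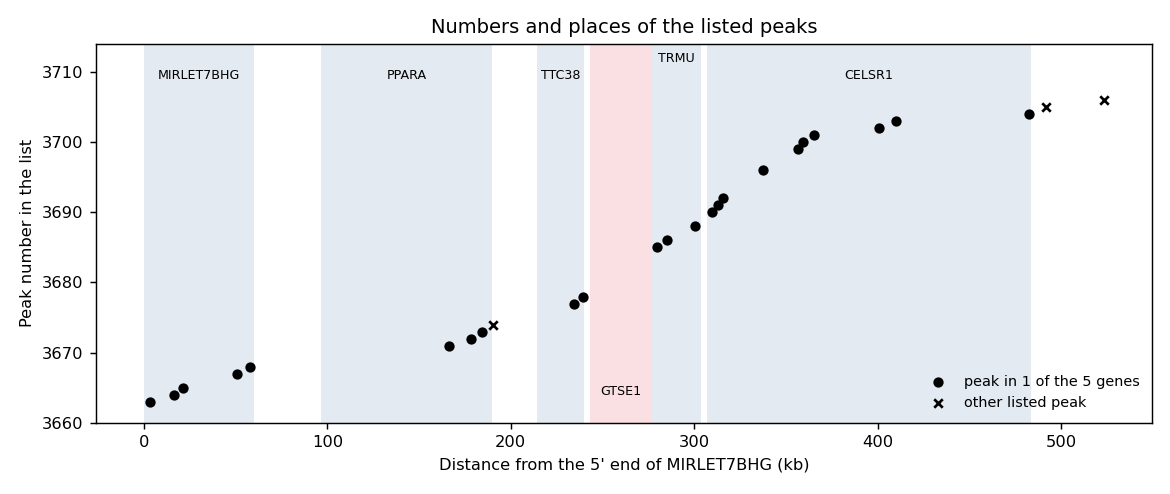
Number of each listed peak (y axis) against its distance from the 5′ end of MIRLET7BHG in kb (x axis). Filled circles are the 23 peaks, crosses other listed peaks, blue bands the 5 genes and the red band GTSE1: the points step up by 7 numbers across GTSE1 without a listed peak in it.

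Spacing between neighbours was of the same order in all 5 genes. The median distance between starts of neighbouring peaks was 10.1 kb in MIRLET7BHG (4.60 to 29.8), 9 kb in PPARA (6.10 to 11.9), 5 kb in TTC38, 10.5 kb in TRMU (5.60 to 15.4) and 9.50 kb in CELSR1 (2.50 to 72.1). Over the 566 neighbouring pairs of chromosome 22 it was 19.2 kb. Neighbours within a gene are nearer by construction than neighbours that may lie in separate genes, so the values are given side by side only.

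The genes related to each of these by function were then looked up, with the share of all coding genes on the same 6 chromosomes, 32.1%, as the background. This background is rough: on chromosome 22 alone 53.8% of coding genes and 13.9% of lncRNA genes held a peak, and the lists include genes of both kinds. Of 8 host genes of let-7 family microRNAs, 2 lie on the 6 chromosomes and both held peaks: MIRLET7BHG and WDR82, on chromosome 3, with 3 peaks (8.93 per 100 kb). Each list that names 1 of the 5 genes counts a gene picked for its peaks, and without MIRLET7BHG this one was 1 of 1. Of 50 partners and fatty acid oxidation targets of PPARA, 13 lie on the 6 chromosomes and 5 held peaks. These were PPARA itself, PPARG, a related receptor that drives fat cell formation, with 1, EP300 with 7, CPT1B, which loads fatty acids onto carnitine in muscle mitochondria, with 1, and EHHADH, an enzyme of peroxisomal fatty acid oxidation, with 2. Without PPARA that was 4 of 12.

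Among 21 planar cell polarity genes 4 lie on the 6 chromosomes and 3 held peaks, CELSR1, its relative CELSR3 with 2 peaks and DVL3, a cytoplasmic relay of Wnt and polarity signals, with 1. Without CELSR1 that was 2 of 3. Among 24 genes of mitochondrial tRNA modification 6 lie there and 3 held peaks, TRMU, QTRT2, a subunit of the enzyme that inserts queuine into tRNA, with 4 and NSUN3, a tRNA methyltransferase of mitochondria, with 1. Without TRMU that was 2 of 5. Of 15 hepatocyte markers 4 lie there and 2 held 1 peak each, TF, which encodes the iron carrier transferrin, and HNF4A, a transcription factor of hepatocytes. AHSG and FOXA2 also lie there and held none. Markers such as ALB and APOB lie outside those 6 chromosomes, so the liver origin of the cells could not be checked from this list. Each list holds only 2 to 13 genes on the 6 chromosomes, too few to set against the background as more than a description.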

How the data were processed

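RIP-seq libraries of PLC/PRF5 cells overexpressing MTR4-HA, 1 with an anti-HA antibody and 1 with IgG, were made by the authors. Per the study's methods and processing notes, adapters were trimmed, reads were mapped to hg19 with TopHat2 v2.0.13, and RIPSeeker gave the peaks, which were annotated with Homer and searched for motifs with MEME-ChIP. Settings of the caller and the use made of the IgG library are not given in the sources used here. The file analysed was a deposited peak list of the whole series. It was taken as that of the anti-HA library because its name marks it as an immunoprecipitate, which no label states outright. Each line gives position, number, score and strand. The score in the deposited list took the values 60 and 1 and was 60 for all 23 peaks, so it ranked none of them. Depth is unknown from this list.

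Positions, counted from 1, were compared with GENCODE release 44 mapped to GRCh37 (the build of hg19). A peak took its class from the base at its centre, over all transcripts of its gene, with coding sequence put before UTRs, UTRs before noncoding exons and those before introns; exon and intron numbers are those of the canonical transcript. Motifs were searched in the orientation of the gene. Shares have Wilson 95% intervals (scipy 1.17.1, python 3.11.15), and the counting was tested on simulated data. No test was made, since the genes were picked on their peaks and there is 1 library. The members, the 5 gene lists and the rules were chosen with earlier results of these data known. The genes named are the 5 genes with every peak in them, the hosted microRNA genes, other genes with a peak in the 600 kb around them, list genes with a peak and the 5 genes closest to MIRLET7BHG in peak density. GTSE1, MIR1281, ALB, APOB, AHSG and FOXA2 were named after values were seen. Alternatives changed the overlap, the transcripts, the strand and the motif.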

Additional observations from a re-analysis of the deposited data

How the results depend on the processing

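Of 43 values recomputed under alternatives, 38 kept to within 1.5 times the count or within the interval first given, and none reversed. Some of these alternatives could not have moved a value, as given below, so the 38 are no measure of robustness. The exonic share moved from 43.5% to 65.2% when any shared base was enough and to 21.7% in canonical transcripts. The CCA-type motif moved from 87.0% to 100% of the 23 peaks when either strand counted and to 56.5% under its other reading. Leaving out peaks that share a base with another gene, an alternative chosen after seeing the data, took MIRLET7BHG from 5 peaks to 3 and the total from 23 to 21. The counts of peaks per gene did not change when the midpoint or 200 bases had to lie in the gene, when peaks within 1000 bases were merged, or when only peaks with the score of 60 were kept. The last 2 of these were fixed in advance. All 23 peaks had the score of 60, and the starts of the closest neighbours, peaks 3691 and 3692, were 2.50 kb apart. The upper part of a graded score could not be taken, as the score has only 2 values. No paired analysis was possible because there is 1 library for each antibody. The unknown depth limits any reading of a missing peak.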
